A study of Mus musculus with 4 samples.

Results

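The subunits of the Arp2/3 complex were followed in medullary thymic epithelial cells (mTECs), the cells of the thymus that present tissue-restricted antigens to developing T cells. The set was taken by symbol and holds 9 genes of the 23337 in the count table: *Actr2*, *Actr3*, *Arpc1a*, *Arpc1b*, *Arpc2*, *Arpc3*, *Arpc4*, *Arpc5* and *Arpc5l*. It was chosen from earlier results of these same libraries, in which *Actr3* fell strongly, so the values of *Actr3* are given as a description with no test, and the tests concern the other 8 subunits. All 9 had enough counts to enter the fit over 18547 genes.

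mTECs (CD45-, EpCAM+, UEA-1+, Ly51-) were sorted from the thymus of 4-week-old C57BL/6 mice and measured by RNA-seq in 4 libraries. The 2 libraries that carry the label *Sirt6* cKO, called cKO-labelled here, came from *Foxn1*-Cre *Sirt6* loxp/loxp mice, in which Cre is driven by *Foxn1*, a transcription factor gene of thymic epithelium, and their genotype label reads Sirt6-/-. The 2 WT libraries came from Cre-negative littermates or age-matched mice. The study calls the samples of a group independent and parallel, and the number of mice behind each is not given in the sources used here, so p-values measure the spread between these samples. SIRT6 is a histone deacetylase, and the comparison asks which transcripts change in mTECs when it is lost.

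The Arp2/3 complex starts new actin filaments on the side of existing ones and so builds the branched networks behind lamellipodia, phagocytic cups and moving endosomes. ARP2 and ARP3, encoded by *Actr2* and *Actr3*, are actin-related proteins that act as the first subunits of the new filament. ARPC1 to ARPC5 hold them together and dock them on the mother filament, and ARPC1 and ARPC5 each come in a pair of isoforms made from separate genes. The complex is almost inactive until a nucleation promoting factor such as N-WASP, WAVE or WASH binds it.

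Total counts were between 61102704 and 65907745 per library. *Sirt6* counted 622 and 755 in WT against 882 and 835 in the cKO-labelled libraries, so the targeted transcript was not lower there. These counts cover the whole gene and do not separate the exons that Cre removes, and each direction below rests on the labels. mTEC genes were abundant in all 4 libraries, with 12 of 12 markers tested and a summed level between 12713 and 14022 CPM (counts scaled to the size of the normalized library). *H2-Aa*, a class II gene that dendritic cells, macrophages and B cells also express, held between 7123 and 8228 CPM of this sum, and *Krt8*, a keratin also found in cortical epithelium, between 1698 and 2585 CPM. At an unadjusted p of 0.05, which 8.58% of all tested genes passed, 4 of the 12 were higher in the cKO-labelled libraries and 1 was lower. The higher ones were *Spib* (log2 fold change 1.13, SE 0.14), *Cd80* (0.94, SE 0.20), *Aire* (0.65, SE 0.18) and *Epcam* (0.48, SE 0.14), and the lower one was *Ccl21a* (-2.37, SE 0.46). Genes of other cells were present in spite of the gate, and none of their markers was at 0 in all libraries. The 8 macrophage and dendritic cell markers summed to 4888 and 2968 CPM in WT and to 1910 and 2034 CPM in the cKO-labelled libraries, with 3 of 8 lower at the same threshold (*Lyz2*, *Cd68* and *Emr1*) and 0 higher. *Lyz2* alone held 4647 and 2815 CPM of this sum in WT and 1778 and 1906 CPM in the cKO-labelled libraries. The 10 thymocyte markers summed to between 973 and 1616 CPM, with 1 lower, and the 4 B cell markers to between 110 and 180 CPM, with 0 called. The 6 fibroblast and endothelial markers summed to between 198 and 274 CPM with 0 called, and the 5 markers of cortical epithelium to between 339 and 617 CPM with 1 higher. In bulk samples, fewer cells of a type and less RNA per cell cannot be told apart. The part of these other cells in the values of the subunits was not tested.

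Much of the sequence of *Actr3* recurs at other loci, so it is shown first. *Actr3* lies at chr1:125392905-125435727 on the minus strand of GRCm38 (the mm10 assembly). Its longest transcript in GENCODE M21 has 2565 bases and 2516 words of 50 bases, of which 1214 (48.3%) also occur in *Gm8822*, a processed pseudogene at chrX:81820384-81822730 on the minus strand. A second processed pseudogene, *Gm15899* at chr8:122683602-122683839, consists wholly of words found in *Actr3* and covers 189 of them (7.51%). Over 2345 aligned bases, *Actr3* and *Gm8822* were identical at 98.9%, with 26 differences, of which 14 fell within the 1254 aligned bases of the coding sequence. The first 90 coding bases, counted from the start codon, were the same in both loci, so that a read from them carries nothing that separates the loci:
*Actr3* and *Gm8822*: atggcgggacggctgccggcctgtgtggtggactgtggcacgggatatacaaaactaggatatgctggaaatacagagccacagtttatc
The 90-base window of the coding sequence with the most differences, bases 889 to 978 from the start codon, is shown next with the 4 bases that differ in capitals:
*Actr3*: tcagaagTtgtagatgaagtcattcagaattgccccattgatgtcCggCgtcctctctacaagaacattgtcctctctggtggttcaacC
*Gm8822*: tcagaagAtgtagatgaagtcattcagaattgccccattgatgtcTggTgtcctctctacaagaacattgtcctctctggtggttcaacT
Neither *Gm8822* nor *Gm15899* is among the genes of the count table, so no count for them can be set beside that of *Actr3*, and whether reads from them entered its count was not tested.

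The actin-related pair, *Actr2* and *Actr3*, behaved differently from each other. *Actr3* counted 41437 in WT 1 and 31837 in WT 2, against 7035 in *Sirt6* cKO 1 and 6300 in *Sirt6* cKO 2. On the TPM scale, which corrects for transcript length and was computed by the authors with StringTie, it stood at 512 and 420 in WT and at 94.7 and 81.0 in the cKO-labelled libraries. Both WT libraries were far above both others, and the 2 libraries of each group lay close together. The log2 fold change of *Actr3* was -2.40 (SE 0.21), a level 19.0% of that in WT. Among the 18547 genes tested, 1.74% had a log2 fold change as low or lower, and 14 of these, *Actr3* included, were among the 10409 genes with a mean of at least 10 CPM. The ratio of *Actr3* count to TPM, relative to each library's median ratio, varied by a factor of 1.026 over the 4 libraries. The other subunits varied by less, from 1.004 (*Arpc4*) to 1.017 (*Actr2*). Count and TPM both came from StringTie, and their ratio reflects the transcript length it used. How reads were assigned to *Actr3* was not tested.

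*Actr2*, at chr11:20062304-20112913 on the minus strand, counted 12662 and 16615 in WT against 21754 and 11290 in the cKO-labelled libraries. The highest and the lowest of its 4 values were thus both in the cKO-labelled libraries, and the groups overlapped. Its log2 fold change was 0.24 (SE 0.37, 95% interval -0.70 to 1.17, adjusted p = 0.908 by edgeR's quasi-likelihood test). As an interval on the level, this runs from 61.7% to 226% of WT. In TPM, *Actr2* stood at 114 and 159 in WT, at 214 in *Sirt6* cKO 1 and at 105 in *Sirt6* cKO 2. The ratio of *Actr3* to *Actr2* TPM was 4.48 and 2.65 in WT and 0.443 and 0.770 in the cKO-labelled libraries. *Actr3* transcripts therefore outnumbered *Actr2* transcripts in both WT libraries and were fewer than them in both others, a shift of -2.56 on the log2 scale that is a description, since *Actr3* was chosen for its fall.

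**Figure D1:**
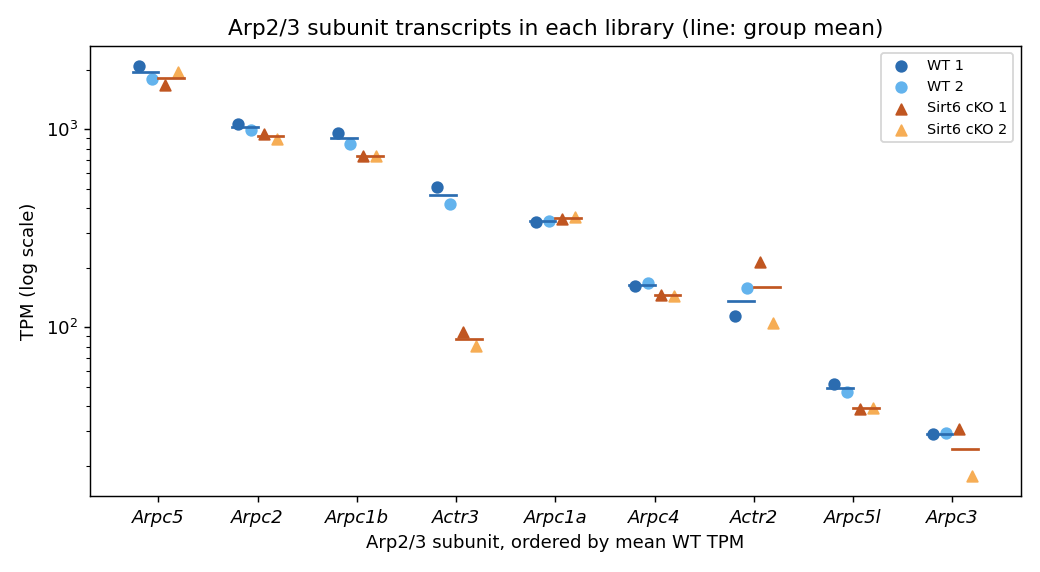
TPM of the 9 Arp2/3 subunits (vertical log axis) in each of the 4 libraries, with circles for WT, triangles for the cKO-labelled libraries and a short line at the mean of each group of 2. *Actr3* drops from 512 and 420 TPM to 94.7 and 81.0 TPM, while the points of each other subunit lie within a factor of about 2 of each other.

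Of the other 8 subunits, 0 passed an unadjusted p of 0.05 in edgeR, where 8.58% of all tested genes passed it in either direction. An adjusted p of 0.05 was passed by 0 of the 8 as well (where 0.00539% of all genes passed it), and their adjusted p was 0.667 or more. DESeq2 and limma on log2 TPM also called 0 of the 8 at the unadjusted p. Their intervals, given below, reached down to levels between 50.5% of WT for *Arpc5l* and 80.2% for *Arpc1a*, and lower still for *Arpc3*, whose interval on the log2 scale began at -1.25. Falls of moderate size therefore lie within these intervals, while a level of 19.0%, as seen for *Actr3*, lies in none of them. The log2 fold changes of the 8 ran from -0.33 (*Arpc5l*) to 0.24 (*Actr2*). The median log2 fold change over all 9 subunits was -0.16, beside 0.00 over all genes tested. This median is a description, since it includes *Actr3*, which was chosen for its fall. In CPM, 4 of the 8 were lower in both libraries labelled *Sirt6* cKO than in either WT library (*Arpc1b*, *Arpc2*, *Arpc4* and *Arpc5l*), 1 was higher in both (*Arpc1a*), and 3 overlapped, where the groups did not overlap for 41.9% of all genes tested.

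*Arpc1a* and *Arpc1b* encode alternative forms of the propeller-shaped ARPC1 subunit and lie side by side on chromosome 5, at chr5:145083830-145108761 and chr5:145114215-145130705, both on the plus strand. *Arpc1b* counted 44649 and 37514 in WT against 31641 and 33390 in the cKO-labelled libraries. The groups did not overlap, and the log2 fold change was -0.28 (SE 0.15, 95% interval -0.67 to 0.10, adjusted p = 0.667 from edgeR), with the smallest p of the 8 subunits. *Arpc1a* counted 16392 and 15563 in WT against 15484 and 16843 in the cKO-labelled libraries, with a log2 fold change of 0.07 (SE 0.15, 95% interval -0.32 to 0.46, adjusted p = 0.942 from edgeR). In CPM its groups did not overlap, but its direction turned with library size alone as the scaling (-0.02) and with upper quartiles (-0.01), so none is read from it. *Arpc1b* exceeded *Arpc1a* in TPM by factors of 2.79 and 2.47 in WT and of 2.09 and 2.03 in the cKO-labelled libraries. The log2 ratio was 1.39 ± 0.12 (SD, n = 2) for WT and 1.04 ± 0.03 (SD, n = 2) in the others, a difference of -0.35. An exact permutation test of 2 libraries against 2 gave a two-sided p = 0.333, the smallest this design allows, so it could call no difference.

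*Arpc1b* also shares sequence with other genes. Of the 3056 words of its longest transcript, 882 (28.9%) lie in *Pdap1*, a gene on the opposite strand whose exons overlap those of *Arpc1b* over 931 bases, and 335 in *Gm5637*, a processed pseudogene on chromosome X that the count table does not list. *Pdap1* counted 3529 and 3684 in WT against 5854 and 3237 in the cKO-labelled libraries. Whether the counting used strand is not given in the sources used here. With the counts of *Pdap1* added, the log2 fold change of *Arpc1b* was -0.21.

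ARPC2 and ARPC4 form the core on which the other subunits are mounted. *Arpc2*, at chr1:74236084-74268209 on the plus strand, counted 51192 and 45174 in WT against 42140 and 41915 in the cKO-labelled libraries, with a log2 fold change of -0.14 (SE 0.15, adjusted p = 0.843 from edgeR). *Arpc4*, at chr6:113378115-113390448 on the plus strand, counted 10855 and 10728 in WT against 9148 and 9436 in the cKO-labelled libraries, with a log2 fold change of -0.16 (SE 0.16, adjusted p = 0.842 from edgeR). Both were slightly lower in each library labelled *Sirt6* cKO than in each WT library, by less than the spread that the test allowed for. The 95% intervals ran from 70.3% to 117% of the WT level for *Arpc2* and from 67.0% to 119% for *Arpc4*. *Arpc4* shares 234 of its 2221 words (10.5%) with *Ttll3*, a gene on the same strand whose exons overlap those of *Arpc4* over 283 bases. *Ttll3* counted 860 and 2336 in WT against 1693 and 1439 in the cKO-labelled libraries, and with its counts added the log2 fold change of *Arpc4* was -0.14. *Arpc2* shared 0.216% of its words with any other gene.

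*Arpc3*, which encodes the subunit that contacts ARP3, was the lowest of the 9. It lies at chr5:122391878-122414184 on the plus strand and counted 745 and 706 in WT against 724 and 443 in the cKO-labelled libraries. The 2 libraries labelled *Sirt6* cKO differed more from each other than the groups did, and the log2 fold change was -0.25 (SE 0.40, 95% interval -1.25 to 0.75, adjusted p = 0.911 from edgeR). In TPM it stood at 29.1, 29.2, 30.8 and 17.8, beside between 897 and 1062 for *Arpc2*, although the complex holds both subunits in equal number. No 50-base word of *Arpc3* occurred in another gene (0%), and how its reads were assigned was not tested.

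*Arpc5* and *Arpc5l* encode alternative forms of the smallest subunit. *Arpc5*, at chr1:152766542-152775597 on the plus strand, was the most abundant subunit transcript, with counts of 119004 and 97194 for WT and of 88371 and 108492 in the cKO-labelled libraries. The groups overlapped, and the log2 fold change was -0.08 (SE 0.16, 95% interval -0.49 to 0.32, adjusted p = 0.93 from edgeR). *Arpc5l*, at chr2:39005348-39015877 on the plus strand, counted 1992 and 1716 in WT against 1371 and 1462 in the cKO-labelled libraries. Its groups did not overlap, and its log2 fold change was -0.33 (SE 0.26, 95% interval -0.99 to 0.32, adjusted p = 0.773 from edgeR). *Arpc5l* amounted to 0.0250 and 0.0263 of *Arpc5* in TPM in WT and to 0.0231 and 0.0201 in the cKO-labelled libraries. The log2 ratio was -5.29 ± 0.05 (SD, n = 2) for WT and -5.54 ± 0.14 (SD, n = 2) in the others. An exact permutation test gave a two-sided p = 0.333. It cannot go lower with 2 libraries a group, so it could call no difference. *Arpc5* was thus the prevailing form in all 4 libraries.

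**Figure D2:**
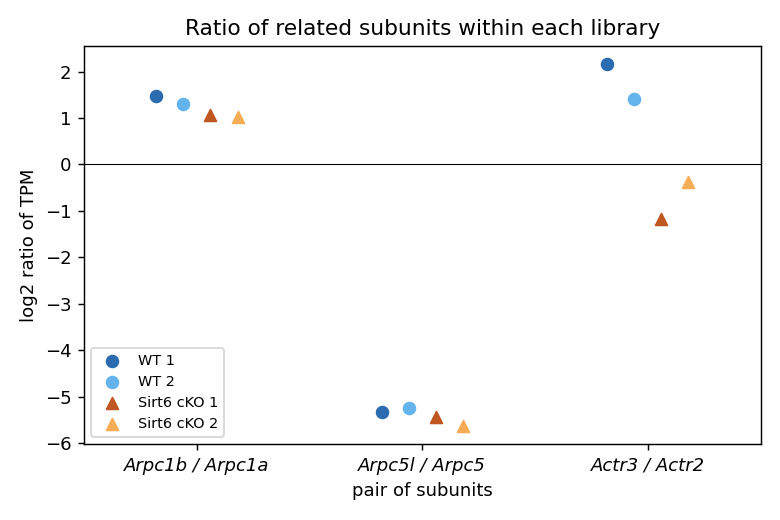
Log2 ratio of the TPM of related subunits (vertical axis) within each library, with circles for WT and triangles for the cKO-labelled libraries. *Actr3* over *Actr2* moves from above to below 0, while the other 2 ratios keep their side of 0 in all 4 libraries.

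The order of the 9 transcripts by TPM was the same in both WT libraries: *Arpc5*, *Arpc2*, *Arpc1b*, *Actr3*, *Arpc1a*, *Arpc4*, *Actr2*, *Arpc5l* and *Arpc3*. *Actr3* moved from rank 4 in WT to rank 7 in both libraries labelled *Sirt6* cKO. *Arpc5*, *Arpc2*, *Arpc1b*, *Arpc5l* and *Arpc3* kept their ranks in all 4 libraries, and *Actr2* and *Arpc4* changed places between the 2 libraries labelled *Sirt6* cKO. The TPM ranges of neighbours in this order did not overlap in WT. In the cKO-labelled libraries the range of *Actr2* held that of *Arpc4*, and no other neighbours overlapped. With 2 libraries a group, such ranges are a weak measure of spread. Summed TPM of the 9 was 5304 and 4801 in WT and 4247 and 4338 in the cKO-labelled libraries. Without *Actr3*, it was 4792 and 4381 in WT and 4152 and 4257 in the others. The sum was thus lower in the cKO-labelled libraries both with and without *Actr3*. Without *Actr3*, the 2 WT libraries differed from each other by more than WT 2 differed from *Sirt6* cKO 2. *Arpc5*, whose groups overlapped, held between 37.4% and 45.1% of the sum of the 9, and the sums were not tested. *Actr3* held 9.65% and 8.76% of the summed TPM in WT and 2.23% and 1.87% in the cKO-labelled libraries.

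**Figure D3:**
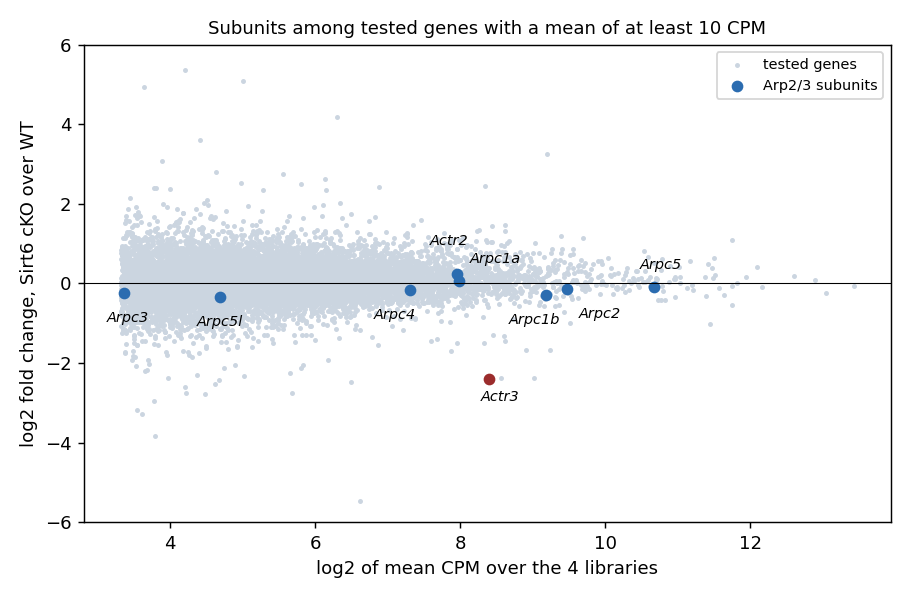
Log2 fold change of the cKO-labelled libraries over WT (vertical axis) against the log2 of mean CPM over the 4 libraries (horizontal axis), for the 10409 tested genes with a mean of at least 10 CPM (grey, 3 of them beyond the axis limits) and the 9 Arp2/3 subunits (blue, *Actr3* red). *Actr3* lies at -2.40, and the other 8 subunits lie near 0, from -0.33 to 0.24.

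The promoters of *Actr3* and *Actr2* are shown because *Actr3* fell while the groups of *Actr2* overlapped. They are taken from RefSeq on GRCm38.p6, which matched 8 of the 9 members, and run from 250 bases before the start of the gene to 50 after it. The *Actr3* promoter is at chr1:125435678-125435977 on the minus strand and the *Actr2* promoter at chr11:20112902-20113201 on the minus strand. Capitals mark 2 kinds of words searched on both strands, GGGCGG (a GC box, bound by SP factors) and CCGGAAGT (a site of ETS factors), which did not overlap each other in these sequences:
*Actr3* promoter: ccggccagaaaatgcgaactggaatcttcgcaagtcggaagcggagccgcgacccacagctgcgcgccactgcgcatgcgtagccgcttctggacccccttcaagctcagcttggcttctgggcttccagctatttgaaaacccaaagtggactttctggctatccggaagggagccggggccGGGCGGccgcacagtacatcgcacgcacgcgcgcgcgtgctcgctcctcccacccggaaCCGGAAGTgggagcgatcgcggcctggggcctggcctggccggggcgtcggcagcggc
*Actr2* promoter: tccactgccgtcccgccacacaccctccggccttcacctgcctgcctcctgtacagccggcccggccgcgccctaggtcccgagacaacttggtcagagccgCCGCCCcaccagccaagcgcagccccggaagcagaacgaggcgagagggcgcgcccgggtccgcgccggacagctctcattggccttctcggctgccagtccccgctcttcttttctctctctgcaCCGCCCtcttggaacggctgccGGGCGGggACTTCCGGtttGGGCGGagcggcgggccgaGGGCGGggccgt
The *Actr3* promoter held 1 GC box word and 1 ETS word, and the *Actr2* promoter 5 and 1. Over the 8 members matched, 6 promoters held the GC box word, beside 35.7% of 32851 RefSeq promoters of this length, and 5 held the ETS word, beside 3.89%. The 2 promoters were 67.3% and 72.0% G or C. Other words were searched as well. The word TATAAA was in 0 of the 8 and in 13.6% of all promoters, and the word CCAAT in 2 (*Actr2* and *Arpc5*) and in 37.4%. A kappa B word (a site of NF-kB factors) was in the same 2 and in 8.46% of all promoters. A CArG box was in 1 (*Arpc4*) and in 1.63%, and an AP-1 word in 0 and in 7.81%. These are matches of letters in a window, and no binding was measured.

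The genes that act on the complex were read from 7 lists, of nucleation promoting factors, their partners, upstream GTPases and adaptors, inhibitors and debranching factors, actins and actin turnover, formins and other nucleators, and other actin-related proteins. The count table listed 79 of their 83 genes and all 79 were tested. In edgeR, 5 of these rose past an unadjusted p of 0.05 and 0 fell, or 6.33%, beside 8.58% of all genes in either direction and 5.27% in the higher direction. With edgeR's adjusted p, 0 of the 79 passed 0.05. Their median log2 fold change was 0.11.

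Among the factors that switch the complex on, 0 of 10 nucleation promoting factors passed the unadjusted p. The smallest p belonged to *Was*, which encodes the WASP protein of blood cells, with counts of 837 and 652 for WT and of 2401 and 792 in the cKO-labelled libraries (log2 fold change 1.18, SE 0.59, adjusted p = 0.642 from edgeR). Its high value rested on *Sirt6* cKO 1 alone, since the log2 fold change without it was 0.10, and *Was* passed the unadjusted p in DESeq2. Of the 14 partners in the WAVE, WASH and WIP groups, 0 passed, with the smallest p for *6720456B07Rik*, the older symbol of *Brk1*, which encodes the small HSPC300 subunit of the WAVE complex. It counted 5034 and 3921 in WT against 5403 and 5497 in the cKO-labelled libraries (log2 fold change 0.34, SE 0.22, adjusted p = 0.717 from edgeR).

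Upstream of these factors, 3 of 13 GTPases and adaptors rose past the unadjusted p and 0 fell, where 5.27% of all genes rose past it. These 3 are among the 5 called over all 79 regulators (6.33%), a share below that of all genes in either direction (8.58%). *Baiap2*, which encodes IRSp53, a protein that links RAC to WAVE, counted 3634 and 4063 in WT against 6744 and 6531 in the cKO-labelled libraries. Its log2 fold change was 0.84 (SE 0.21, adjusted p = 0.541 from edgeR), and it stayed past the unadjusted p with each library left out in turn. *Fnbp1l* (TOCA-1) counted 5596 and 3905 in WT against 6710 and 9535 in the cKO-labelled libraries, a log2 fold change of 0.82 (SE 0.27, adjusted p = 0.541 from edgeR). *Fnbp1* (FBP17) counted 4537 and 3492 in WT against 6110 and 5524 in the others, a log2 fold change of 0.59 (SE 0.23, adjusted p = 0.574 from edgeR). *Fnbp1l* missed the unadjusted p of 0.05 without WT 2 (log2 fold change 0.60) and without *Sirt6* cKO 2 (0.58), and *Fnbp1* missed it whichever of the 4 libraries was left out (0.44 to 0.75).

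On the side that holds the complex back or takes branches apart, 0 of 8 genes passed. *Pick1*, an inhibitor of the complex, had the smallest p, with counts of 1643 and 2175 for WT and of 1738 and 634 in the cKO-labelled libraries (log2 fold change -0.62, SE 0.54, adjusted p = 0.807 from edgeR). Its low value was that of *Sirt6* cKO 2, and without *Sirt6* cKO 1 the log2 fold change was -1.58 and passed the unadjusted p.

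Among 12 genes of actin and its turnover, 1 rose and 0 fell, where 5.27% of all genes rose past the unadjusted p. *Actb* encodes beta-actin, an actin of the filaments that the complex starts. It counted 67368 and 71692 in WT against 141265 and 92141 in the cKO-labelled libraries, a log2 fold change of 0.81 (SE 0.25, adjusted p = 0.541 from edgeR). Both libraries labelled *Sirt6* cKO were above both WT libraries, but *Sirt6* cKO 1 was well above *Sirt6* cKO 2. The call was lost without *Sirt6* cKO 1 (log2 fold change 0.42) and without WT 1 (0.72). Of 13 formins and other nucleators, which start unbranched filaments, 0 passed, with the smallest p for *Daam2* (146 and 281 counts in WT, 446 and 498 in the others, log2 fold change 1.19, SE 0.51, adjusted p = 0.612 from edgeR). *Daam2* passed the unadjusted p without WT 2 (1.76).

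**Figure D4:**
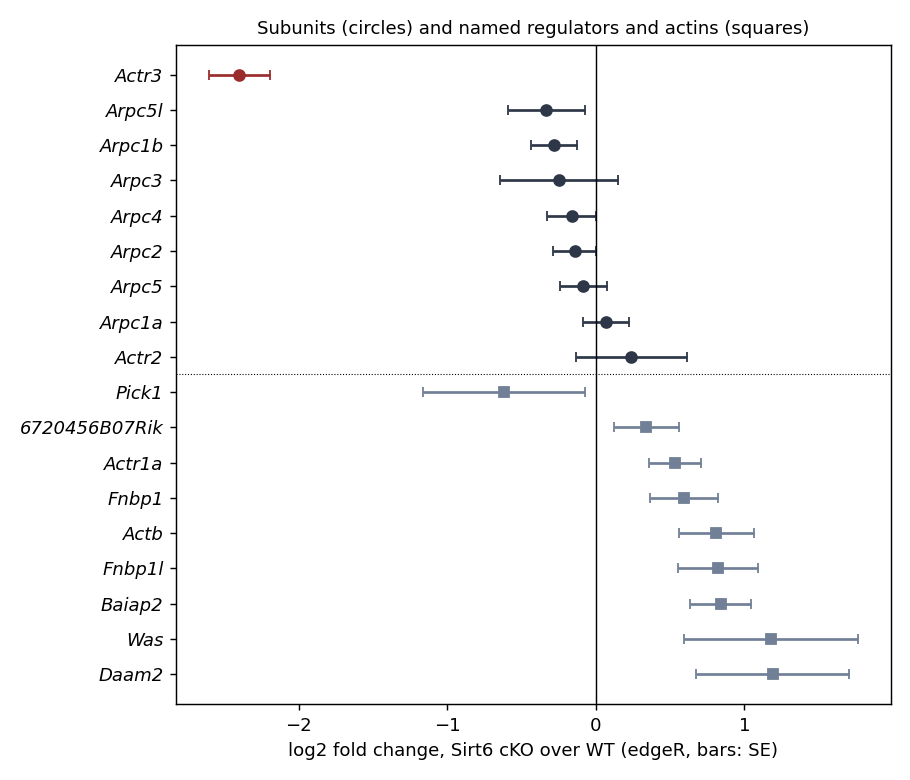
Log2 fold change of the cKO-labelled libraries over WT (horizontal axis, bars 1 SE, edgeR) for the 9 subunits (circles, *Actr3* red) and for the genes named from the lists (squares). *Actr3* stands alone at -2.40, and the squares of *Baiap2*, *Fnbp1l*, *Fnbp1*, *Actb* and *Actr1a* lie between 0.53 and 0.84.

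The 9 other actin-related proteins resemble ARP2 and ARP3 but serve dynactin or chromatin remodelling complexes in most cases. Of these, 1 rose and 0 fell, where 5.27% of all genes rose past the unadjusted p. *Actr1a*, which encodes the ARP1 filament of dynactin, counted 12291 and 13500 in WT against 18703 and 17181 in the cKO-labelled libraries (log2 fold change 0.53, SE 0.18, adjusted p = 0.545 from edgeR). Its groups did not overlap, but it missed the unadjusted p without WT 1 (0.42) and without *Sirt6* cKO 1 (0.42). *Actr3b*, which encodes a close relative of ARP3, had between 78 and 124 counts in every library and a log2 fold change of 0.10 (SE 0.82, adjusted p = 0.984 from edgeR), so a change of moderate size in *Actr3b* could not be detected with these libraries. It was named for its relation to *Actr3* after its values were seen.

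The 5 genes whose pattern over the 4 libraries came nearest to that of *Actr3*, by the root mean square difference in centred log2 CPM among 10408 other genes with a mean of at least 10 CPM, were *Lrch4* (0.193), *Rgs13* (0.306), *Ak4* (0.306), *Car8* (0.321) and *Ms4a7* (0.335). *Lrch4* counted 3729 and 2487 in WT against 768 and 664 in the cKO-labelled libraries. *Rgs13*, a regulator of G-protein signalling, counted 2666 and 2947 in WT against 530 and 711 in the others. *Car8* counted 5074 and 6682 in WT against 1494 and 1081 in the others. The likeness rests on 4 libraries, was the ground on which these genes were picked, and is given with no test.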

How the data were processed

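RNA-seq was measured in 4 libraries of sorted mTECs, 2 per group, grouped by the titles GEO gives them. Per the submitters' processing notes and the methods, trimmed reads went through HISAT2 2.1.0 on mm10 and then StringTie 1.3.3. The authors deposited raw counts for 23337 gene symbols and TPM values in 1 table per library. The last line of each TPM table named no gene and held the column total, and was left out. The gene annotation and the use of strand are not given in the sources used here. No column was left unmapped.

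The counts were tested with edgeR 4.0.16 in R 4.3.3 (TMM normalization, filterByExpr at 10 counts and a total of 15, quasi-likelihood fit, 2 libraries against 2, no covariates), over 18547 genes, with Benjamini-Hochberg adjustment over all of them. A standard error is the log2 fold change divided by the square root of its F value, and intervals are at 95%. The study's methods used DESeq2, which was run as an alternative. No pair of libraries agreed within sampling noise (chi-square per gene 154 or more). Depth was 61102704 or more counts per library. The chi-square is a mean over genes, so it does not show that counting error is small for genes with few counts, such as *Actr3b* and *Actr5*. The script was tested on simulated counts with 200 changed genes. The members and gene lists were chosen with earlier results of these data known. Every member was named. From each list, the text names each gene past an unadjusted p of 0.05 (at most 4), otherwise the gene with the smallest p. It also names listed genes that share at least 10% of 50-base words with a member, the 5 genes nearest to *Actr3* in pattern among those with at least 10 CPM, and *Sirt6*. Of the lists, *Washc2*, *Diaph1*, *Diaph2* and *Diaph3* were not matched in the count table, and older symbols were matched through RefSeq. Words and positions came from GENCODE M21 on GRCm38, and promoters from RefSeq. Ratios of subunits were tested with exact permutation tests.

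Alternatives to the scaling were DESeq2 1.42.0, upper quartiles and total counts. Alternatives to the filter were none, and the study's TPM over 0.1 everywhere. Others were a replicate block, limma 3.58.1 on log2(TPM + 1) and log2(TPM + 0.1), sums with genes that share sequence, ratios from counts, and leaving out 1 library. With 1 library left out, the lone library of its group was assumed to vary like the other group.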

Additional observations from a re-analysis of the deposited data

How the results depend on the processing

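In every alternative run, 0 of the 8 subunits other than *Actr3* passed an unadjusted p of 0.05, with each library left out (0 to 0) and with the sums included. The log2 fold change of *Actr3* stayed between -2.49 and -2.39 over the alternatives that kept all libraries and between -2.56 and -2.24 with 1 library left out. With 1 library left out, the direction turned for *Actr2* (-0.37 to 0.65), *Arpc3* (-0.70 to 0.08) and *Arpc5* (-0.21 to 0.02). The median over the 9 subunits, a description that includes *Actr3*, was -0.24 with upper quartiles and -0.25 with library size alone. The median of all genes lay at -0.09 in both. With 1 library left out, the median over the 9 lay between -0.29 and -0.16, the lowest without *Sirt6* cKO 1. The number of regulators past the unadjusted p, 5 in edgeR, was 6 with DESeq2 (*Was* added), 6 with the study's filter on TPM (*Actr5* added, as lower), 7 in limma on log2(TPM + 1) (*Actr5*, as lower, and *Actr1b* added), 5 in limma on log2(TPM + 0.1) and with no filter, 4 with upper quartiles, 3 with library size alone and 2 with the replicate block. It ranged from 2 (without WT 1) to 10 (without *Sirt6* cKO 2) with 1 library left out, with 3 without *Sirt6* cKO 1. The number of all genes past the unadjusted p also changed with the setting. It was 1592 of 18547 in edgeR, 2137 of 20997 with DESeq2, 1559 of 18547 with library size alone and 1146 of 18547 with the replicate block. It was lowest without *Sirt6* cKO 1, while the regulators were fewest without WT 1. The number of regulators and that of all genes thus did not move in the same direction in every setting, and the cause of these changes was not tested. At an adjusted p of 0.05, DESeq2 called 1 of the 79 regulators, *Baiap2*, and the other alternatives 0. Over all genes, the adjusted p called 1 gene in edgeR, 354 in DESeq2 and 7 in limma on log2(TPM + 1). The paired fit with the replicate block lost *Fnbp1l*, *Fnbp1* and *Actr1a* and changed no call of a subunit. The labels give only a shared number, and same-numbered libraries deviated with a correlation of -0.05 over genes. The difference in log2 ratio of *Arpc1b* to *Arpc1a* lay between -0.44 and -0.26 with 1 library left out, that of *Arpc5l* to *Arpc5* between -0.35 and -0.15 and that of *Actr3* to *Actr2* between -2.96 and -2.16. With 2 libraries a group, the spread between libraries more than the depth limits what can be called for genes with high counts.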

Other observations

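Of the actin-related proteins of chromatin complexes, *Actr5*, a subunit of the INO80 complex, counted 327 and 191 in WT against 66 and 105 in the cKO-labelled libraries (log2 fold change -1.55, SE 0.70, adjusted p = 0.621 from edgeR). *Actr6*, a subunit of the SRCAP complex, counted 3178 and 3568 in WT against 2147 and 2499 in the others (log2 fold change -0.49, SE 0.23, adjusted p = 0.639 from edgeR). Both were lower in each library labelled *Sirt6* cKO than in each WT library, and neither passed the unadjusted p of 0.05 in edgeR. *Actr5* did pass it, as lower, with the study's filter on TPM and in limma on log2(TPM + 1). *Actl6a*, a subunit shared by several remodelling complexes, counted 10820 and 6582 in WT against 7113 and 8480 in the others, and its groups overlapped. These 3 genes were chosen after their values were seen.

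Of the GTPases that activate the nucleation promoting factors, *Cdc42*, *Rac1* and *Rac2* were abundant in all 4 libraries. *Rac3* was far lower, between 4.51 and 9.54 CPM. *Cdc42* counted 78592 and 72183 in WT against 76377 and 81459 in the cKO-labelled libraries, and *Rac1* counted 12914 and 11275 in WT against 9098 and 13979 in the others. *Rac2*, the form of blood cells, counted 27242 and 28674 in WT against 24551 and 21952 in the others, a log2 fold change of -0.21 (SE 0.17, adjusted p = 0.779 from edgeR). These values were also chosen after they were seen.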
